A study of Mus musculus with 18 samples.

Results

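Genes that mark skeletal muscle, 9 in all, were followed in cultures of mouse embryonic fibroblasts: Myod1, Myog, Acta1, Actc1, Des, Chrna1, Mylpf, Myl1 and Tnnc2. Every probe set annotated to them was taken, which gave 11 of the 45101 probe sets on the array, with 2 each for Myod1 and Des and 1 for each of the others. The cultures were made from day 12.5 to 14.5 embryos after head, liver and blood clots had been taken out, with all remaining tissue digested into the cell suspension. The 3 genotypes were wt and, for a mutant described as constitutively active, heterozygous and homozygous. The title places the mutation in TGFBR1, and the design text names TGFb1. For each genotype RNA came from cells without TGFb1 (untreated, called vehicle in the design text, with no duration given) and from cells kept for 4 h or 24 h with TGFb1 at 5 ng/mL. All 9 groups were grown in the same medium with serum and had 2 Affymetrix arrays each, 18 in all. No label states a strain, a passage or which arrays share an embryo or a culture. The p-values therefore measure the spread between these arrays, which may be technical.

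Skeletal muscle forms when committed progenitors switch on MyoD, encoded by Myod1, and then myogenin, encoded by Myog, a pair of basic helix-loop-helix factors that bind E-boxes in muscle promoters and drive cell cycle exit and fusion. Differentiating cells then make sarcomere proteins. Alpha-actins come from Acta1, the skeletal form, and Actc1, the cardiac form that developing skeletal muscle also makes. Myosin light chains come from Mylpf and Myl1, and the calcium sensor of fast troponin from Tnnc2. Desmin, from Des, is the intermediate filament of muscle cells, and Chrna1 encodes the alpha subunit of the nicotinic receptor at the neuromuscular junction. TGFb is known as an inhibitor of myoblast differentiation and an activator of contractile genes in fibroblasts. Levels are given as log2 of the deposited intensity, and a level under log2 5 is called dim because it lies near the background of these arrays.

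The defining genes of the lineage gave little signal. Myod1 was dim on all 18 arrays, at log2 1.69 to 1.73 with 1 probe set and 2.01 to 2.08 with the other. Of 97 other skeletal muscle genes in 4 lists, 28 were measured (at least log2 5 in at least 2 arrays) and 69 were not. Of the unmeasured genes 67 were on the array, and 65 of these stayed under log2 5 everywhere, among them the progenitor factors Pax3 (highest level 4.15) and Pax7 (2.14), the regulators Myf5 (3.34) and Myf6 (2.45), M-cadherin Cdh15 (2.2), the fusion genes Mymk (2.96) and Mymx (4.54), muscle creatine kinase Ckm (2.89) and the adult myosins Myh1, Myh2 and Myh4 (2.68, 2.39 and 3.28). The fibroblast markers Col1a1 (14.64 to 15.63), Pdgfrb (12.99 to 13.83) and Vim (15.71 to 15.91) were bright on every array. Of the other 9 fibroblast markers listed 8 stayed above log2 5 on all arrays, and Pdgfra (4.08 to 7.9) was dim on 5 of the 6 arrays at 4 h. Of 14 cardiac markers 3 were measured, and Nkx2-5 (1.95) and Myh6 (3.42) were dim. The label of skeletal muscle is thus borne out only in part. Of the sarcomere and Z-disc list 8 genes were measured and of the myogenic factor and progenitor list 8, in each fewer than were not. Myod1, Pax3, Pax7, Myf5 and Myf6 were dim on all arrays. In such bulk RNA fewer muscle cells and less muscle RNA per cell cannot be told apart.

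The arrays also differed in a way that the groups do not explain. Xist, the transcript of the inactive X chromosome, lay at log2 11.27 to 11.88 on 12 arrays, and transcripts of Y-linked genes were present on the other 6. All 6 heterozygous arrays carried Xist. In homozygous cells replicate 1 carried Xist and replicate 2 the Y transcripts in each of the 3 treatments. In wt cells Xist was present in untreated replicate 1 but in replicate 2 at 4 h and 24 h, so the numbers do not follow the class of the array there. Pairs of wt arrays also varied more than other pairs, with a root mean square SD over genes of 0.321 to 0.387 against 0.183 to 0.222 in the mutants. Macrophage markers moved with genotype and, among wt arrays, with the class. The log2 of their summed level over 14 genes was 9.91 to 10.73 in the wt arrays with Y transcripts and 11.6 to 12.82 in the wt arrays with Xist. It was 13.54 to 14.54 in heterozygous and 13.01 to 13.93 in homozygous arrays. In homozygous cells the classes overlapped, at 13.1 to 13.93 with Y transcripts and 13.01 to 13.91 with Xist.

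Myogenin was seen in wt cultures only in part of the arrays. Myog (1419391_at) lay at log2 4.34 and 6.43 in untreated wt replicates 1 and 2, at 5.47 and 5.03 after 4 h and at 5.45 and 3.96 after 24 h. Heterozygous arrays, in the same order, gave 3.88 and 3.78, then 4.24 and 3.64, then 3.96 and 3.70, and homozygous arrays gave 3.91 and 3.43, 3.95 and 4.16, 3.84 and 3.73. Every mutant array was dim, and 4 of the 6 wt arrays were not. The wt array with Y transcripts was the higher of its pair at each treatment, the wt array with Xist at 24 h (3.96) lay within the range of the mutants, and the untreated one (4.34) just above their highest value (4.24).

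Fast muscle light chains followed the same order within each pair of wt arrays and remained measurable in the mutants. Mylpf (1448371_at), the regulatory light chain of fast fibres, lay at 6.88 and 8.73 in untreated wt cells, 8.58 and 7.70 at 4 h and 7.84 and 6.57 at 24 h. Its heterozygous values were 6.64 and 6.68, 7.49 and 6.59, 6.58 and 6.31, and its homozygous values 6.63 and 6.20, 7.12 and 6.99, 6.06 and 6.27. The 3 wt arrays with Y transcripts lay above every mutant array, and the share of all genes with this separation was not counted. Of the wt arrays with Xist, those without TGFb1 and at 24 h fell among the mutant values. That at 4 h (7.70) lay just above the highest mutant value (7.49). Myl1 (1452651_a_at), the alkali light chain, lay at 6.89 and 8.12, 8.15 and 7.42, and 7.04 and 6.08 in wt cells. Heterozygous arrays gave 6.88 and 5.58, 7.02 and 5.47, 5.84 and 4.93, and homozygous arrays 5.89 and 5.75, 6.31 and 6.26, 5.35 and 4.88. Heterozygous replicate 1 was the higher of its pair in each treatment for Myl1, and stood closer to the wt array with Xist than replicate 2 did. Replicate 1 was the higher in each treatment for Acta1, Actc1, Des and Chrna1 too, and for Myog among dim values, but not for untreated Mylpf. All heterozygous arrays carried Xist, and the share of all genes with this order was not counted. Tnnc2 (1417464_at) reached log2 5 on 1 array, untreated wt replicate 2 (5.17), and lay at 4.51 on wt replicate 1 at 4 h. Its other 16 arrays gave 2.27 to 2.42, and both exceptions carried Y transcripts.

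The regulatory DNA before Myog and Mylpf is shown because these genes moved together over the arrays. Promoter sequences, the 250 bases before the start, were found in RefSeq on build GRCm38.p6 for 8 of the 9 genes. Capitals mark an MEF2 element in Myog, which begins 64 bases before the start, and an E-box with the letters CAGCTG in Mylpf, which begins 51 bases before it. Myog is at chr1:134289754-134290003 on the plus strand and Mylpf at chr7:127211358-127211607 on the plus strand, both read 5′ to 3′.
Myog: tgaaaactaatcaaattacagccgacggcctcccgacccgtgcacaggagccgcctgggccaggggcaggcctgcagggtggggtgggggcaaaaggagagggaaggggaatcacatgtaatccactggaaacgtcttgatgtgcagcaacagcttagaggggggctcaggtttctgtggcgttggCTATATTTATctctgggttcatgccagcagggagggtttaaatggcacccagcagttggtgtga
Mylpf: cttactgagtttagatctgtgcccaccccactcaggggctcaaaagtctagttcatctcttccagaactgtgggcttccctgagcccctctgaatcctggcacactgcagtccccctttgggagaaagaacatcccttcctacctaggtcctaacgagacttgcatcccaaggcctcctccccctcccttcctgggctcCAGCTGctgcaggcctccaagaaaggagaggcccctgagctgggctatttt
CAGCTG, which reads alike on both strands, occurred in 5 of the 8 promoters (Acta1, Des, Chrna1, Mylpf and Myl1, with 2 copies in Chrna1) and in 13% of 32851 promoter windows of equal length. The MEF2 element, searched on both strands, occurred in Myog alone of the 8 and in 7.03% of all windows. No matches overlapped in these 8 promoters. E-boxes of other letters than CAGCTG were not searched or marked, so unmarked stretches may hold them. A match describes the letters in the window and is not a site.

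The 2 sarcomeric actins ran in opposite directions among the wt arrays. Actc1 (1415927_at) lay at 7.85 and 9.44 in untreated wt cells, 9.12 and 7.69 at 4 h and 8.28 and 6.78 at 24 h. In heterozygous cells it lay at 7.17 and 6.77, 7.17 and 6.81, 6.58 and 6.22, and in homozygous cells at 7.17 and 7.08, 7.16 and 7.33, 6.64 and 6.65. Within each treatment both wt arrays exceeded all 4 mutant arrays, and the array with Y transcripts was the higher. The share of all genes with this separation was not counted. Acta1 (1427735_a_at) lay at 11.54 and 10.73, 11.05 and 12.66, and 10.49 and 12.51 in wt cells, so here the arrays with Xist were the higher. Heterozygous arrays gave 10.23 and 9.77, 10.68 and 10.24, 9.95 and 9.36, and homozygous arrays 9.56 and 9.59, 10.15 and 10.14, 9.70 and 9.59. All 6 homozygous arrays lay below all 6 wt arrays, a separation that 0.407% of the 10078 tested genes showed in that direction (0.189% for heterozygous arrays). Of the heterozygous arrays 5 lay below every wt array. Actin transcripts are close in sequence, and cross-hybridization of these probes was not tested.

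Both actin promoters held a CArG box, the site of serum response factor, which is present in 1.47% of the windows and in none of the other 6 promoters found. They are printed because the pair shares this motif while its levels diverged between the wt arrays. In Acta1 (chr8:123894776-123895025, minus strand) the CArG box begins 73 bases before the start and a CAGCTG 221 bases before it, and in Actc1 (chr2:114052876-114053125, minus strand) the CArG box begins 47 bases before the start. Capitals mark these motifs.
Acta1: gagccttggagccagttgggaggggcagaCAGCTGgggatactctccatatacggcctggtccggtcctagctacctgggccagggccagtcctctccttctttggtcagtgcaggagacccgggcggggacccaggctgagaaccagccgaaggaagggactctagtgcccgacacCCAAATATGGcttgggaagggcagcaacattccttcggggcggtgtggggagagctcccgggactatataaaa
Actc1: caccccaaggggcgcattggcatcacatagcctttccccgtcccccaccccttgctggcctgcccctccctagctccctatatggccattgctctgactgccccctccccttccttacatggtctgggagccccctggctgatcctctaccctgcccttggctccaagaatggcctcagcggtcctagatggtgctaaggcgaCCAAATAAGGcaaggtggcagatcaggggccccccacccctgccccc

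Desmin and the receptor subunit had patterns of their own. Des (1426731_at) lay at 8.58 and 9.60 in untreated wt cells, 9.65 and 8.96 at 4 h and 7.90 and 8.01 at 24 h. Heterozygous arrays gave 9.58 and 9.44, 10.25 and 10.04, 8.98 and 8.57, and homozygous arrays 9.10 and 9.57, 9.22 and 10.10, 7.70 and 8.90. The genotypes overlapped, and in each the 24 h pair held the lowest value. The other probe set of Des stayed at 2.22 to 2.29 everywhere, so the 2 probe sets disagree and only the brighter gives a level. Chrna1 (1418852_at) lay at 5.29 and 5.79, 6.51 and 5.35, and 5.88 and 5.75 in wt cells. In heterozygous cells the values were 4.45 and 3.66, 5.59 and 5.14, 5.19 and 4.67, and in homozygous cells 4.63 and 4.01, 5.35 and 6.11, 4.91 and 5.41. Untreated mutant arrays were dim in both genotypes, and no wt array was.

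**Figure D1:**
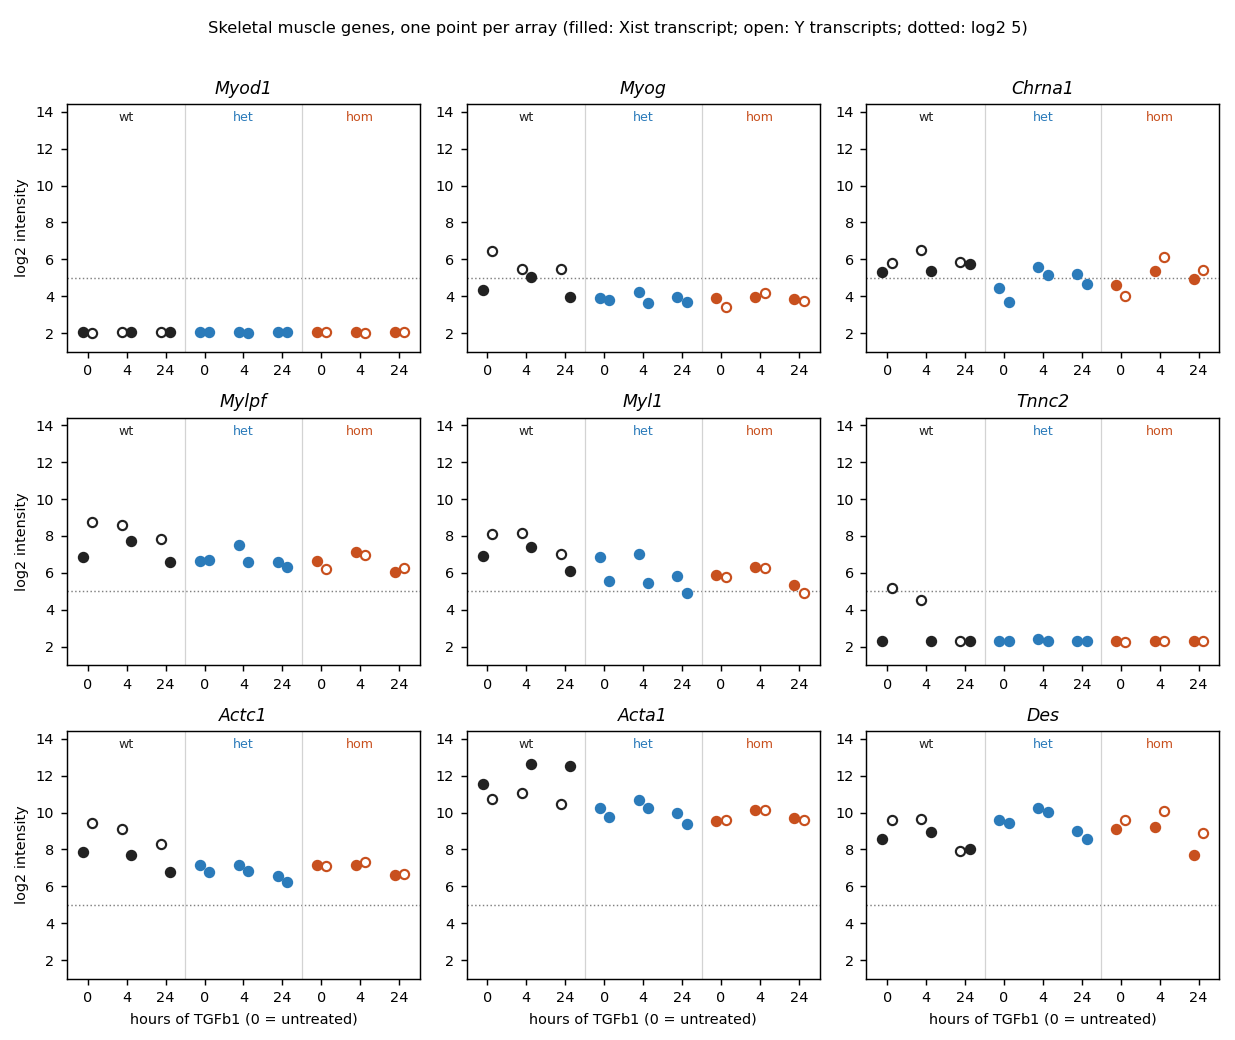
Log2 intensity of the 9 genes on each of the 18 arrays (the brighter probe set for Myod1 and Des), by hours of TGFb1 within each genotype. Filled points are arrays with Xist, open points arrays with Y transcripts, and the dotted line is log2 5. Open wt points are the higher of their pair for Myog, Mylpf, Myl1 and Actc1, and the lower for Acta1, while Myod1 is flat near log2 2.

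Group means ordered the groups as follows. The highest mean was that of untreated wt cells for Myog (5.39 ± 1.48, SD, n = 2) and Actc1 (8.65 ± 1.12), and that of wt cells at 4 h for Acta1 (11.86 ± 1.14) and Chrna1 (5.93 ± 0.82). Des was highest in heterozygous cells at 4 h (10.15 ± 0.15) and lowest in wt cells at 24 h (7.95 ± 0.08). Mylpf and Myl1 were highest in wt cells at 4 h (8.14 ± 0.62 and 7.78 ± 0.51) and lowest in homozygous cells at 24 h (6.17 ± 0.15 and 5.12 ± 0.33). All 3 wt groups had higher means than all 6 mutant groups for Acta1, Actc1, Mylpf and Myl1. The share of all genes with this order was not counted. Myog had the same order, but it passed the filter through wt arrays alone, so its lower mutant values were given by the filter. Among the wt groups of Myog, Actc1 and Acta1 each step in the order was smaller than the larger SD of the neighbours, so their order is not resolved. The same held for the step from the highest mean to the next for Mylpf, Myl1, Chrna1 and Des. It held too for the step from the lowest to the next for Mylpf, Myl1 and Des, so these extremes are not resolved either. The mutant groups of Myog, all dim, have no order.

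The mutants were compared with wt over the 3 treatments to ask whether muscle genes were lower in mutant cultures. Of the 9 genes 7 entered the test, and Myod1 and Tnnc2 did not pass the filter of log2 5 in 2 arrays. Myog passed it through wt arrays alone, so a lower value in the mutants was given by the filter, and it is left out of the counts and medians of these comparisons. With limma over all 18 arrays and Benjamini-Hochberg adjustment, 4 of the other 6 were called lower in heterozygous than in wt cells at an adjusted p under 0.05, against 1.9% of the 10078 genes called lower. In homozygous cells 4 of the 6 were called lower as well, against 4.46% of all genes. The median difference of the 6 was -1.17 and -1.18, and that of all genes -0.003 and -0.001. None was called higher in either mutant, where 4.42% (heterozygous) and 6.26% (homozygous) of all genes were.

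Acta1 was lower by the largest amount in both mutants, 2.75-fold in heterozygous cells (log2 difference -1.46 ± 0.33, SE, adjusted p = 0.0171, limma) and 3.27-fold in homozygous cells (-1.71 ± 0.33, adjusted p = 0.00577). Actc1 was 2.65-fold and 2.28-fold lower (-1.41 ± 0.31 and -1.19 ± 0.31, limma adjusted p = 0.016 and 0.0298). Myl1 was 2.51-fold and 2.91-fold lower (-1.33 ± 0.33 and -1.54 ± 0.33, limma adjusted p = 0.0315 and 0.0116). These 3 genes were called in both mutants. For Myog, whose mutant arrays are dim, the means give a bound of at least 1.08-fold lower in each mutant. Mylpf was called in homozygous cells only (-1.17 ± 0.31, limma adjusted p = 0.0292), with -1.01 ± 0.31 and an adjusted p of 0.0788 in heterozygous cells. Chrna1 was called in heterozygous cells only (-0.98 ± 0.24, limma adjusted p = 0.0295), with -0.69 ± 0.24 and an adjusted p of 0.0883 in homozygous cells. Desmin alone lay above wt, by 0.69 ± 0.24 and 0.32 ± 0.24 (limma adjusted p = 0.121 and 0.453).

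Between the mutants themselves 0 of the 7 genes were called by limma, with 13 genes called among 10078 (0.129%). At an unadjusted p under 0.05 there were 0 of the 7 and 706 of all genes. The 95% intervals of homozygous minus heterozygous ran from -0.96 to 0.46 for Acta1, -0.46 to 0.9 for Actc1, -0.83 to 0.5 for Mylpf and -0.93 to 0.51 for Myl1, so differences of up to about these sizes were not resolved. Within a single treatment the same model called 0 of the 7 genes in any of the 9 genotype comparisons. At an unadjusted p under 0.05, in either direction and with Myog counted, it gave 4 genes untreated, 4 at 4 h and 1 at 24 h for heterozygous against wt. For homozygous against wt it gave 6, 2 and 2. Of all 10078 genes 980, 1259 and 906 reached that unadjusted level for heterozygous and 1811, 1525 and 1174 for homozygous against wt. After adjustment 0.923%, 1.43% and 1.22% of all genes were called for heterozygous and 1.77%, 1.43% and 0.486% for homozygous against wt. Between the mutants 0 of the 7 had an unadjusted p under 0.05 in any treatment, beside 340, 303 and 233 of all genes. After adjustment 0%, 0.0198% and 0.0298% of all genes were called.

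These calls depend on how the arrays are counted. When the 3 arrays that share a class of Xist or Y transcripts (wt) or a number (mutants) were averaged, leaving 2 against 2, limma called 0 of the 6 genes in either mutant (adjusted p 0.279 to 0.504 and 0.199 to 0.683), with 0.109% and 0.0496% of all genes called lower. With the same sets as a random effect 3 genes were called in each mutant (Acta1, Actc1 and Myl1), beside 1.02% and 1.81% of all genes. The log2 differences of the averages are the same by construction. In that averaged fit 4 of the 6 in heterozygous and 4 of the 6 in homozygous cells had an unadjusted p under 0.05. The share of all genes at that unadjusted level was not counted, so these counts have no background and are not read as a result. Leaving out any of the 3 wt arrays with Y transcripts lowered the heterozygous count from 4 to 2 (untreated replicate 2), 3 (4 h replicate 1) or 2 (24 h replicate 1), and leaving out heterozygous replicate 2 at any treatment lowered it to 1. For homozygous cells the count fell from 4 to 2 without wt 24 h replicate 1, without untreated homozygous replicate 2, or without either homozygous array at 4 h or 24 h.

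Within arrays of the same class the differences had the same direction but other sizes. Among arrays with Xist, homozygous minus wt was -2.43 for Acta1 but -0.45 for Actc1, -0.45 for Mylpf and -0.95 for Myl1. Among arrays with Y transcripts the same comparison gave -0.99 for Acta1 and -1.93, -1.9 and -2.14 for the other 3. Heterozygous minus wt, which exists only among arrays with Xist, was -2.2 for Acta1, -0.66 for Actc1, -0.34 for Mylpf, -0.84 for Myl1 and -0.68 for Chrna1. These values have no test. In each class a genotype is present with 1 or 2 sets of arrays, so the class and the culture cannot be told apart.

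**Figure D2:**
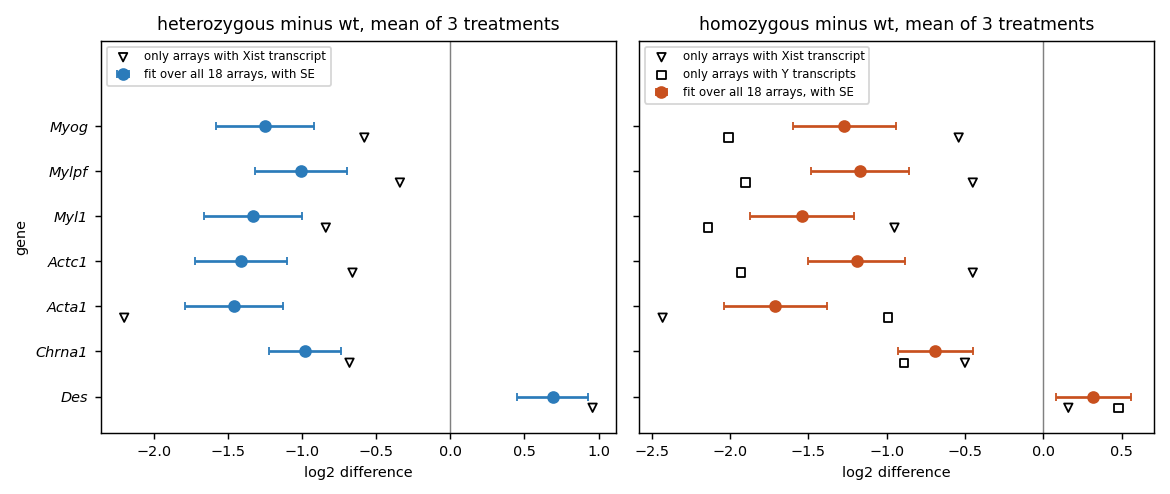
Log2 difference of each mutant from wt over the 3 treatments for the 7 tested genes, with the SE of the limma fit over 18 arrays (filled circles). Triangles and squares give the difference among arrays with Xist and with Y transcripts. Acta1 lies farthest from 0 among arrays with Xist (-2.2 and -2.43), and Myl1 among arrays with Y transcripts (-2.14). The Myog values are set against dim mutant arrays, so their size is not resolved.

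Markers of other cells moved as well. Of 5 neural and glial markers measured, Tubb3 (-0.86 ± 0.23, limma adjusted p = 0.0411) and Gap43 (-0.68 ± 0.17, adjusted p = 0.0333) were called lower in heterozygous cells. Stmn2 (-0.58), Mbp (-0.09) and Sox10 (0.41) were not called there. In homozygous cells only Sox10, of neural crest, was called, and it was higher (0.66 ± 0.2, limma adjusted p = 0.0489), while the others lay below wt. Of 3 cardiac markers measured, Hand2 was called lower in homozygous cells (-1.12 ± 0.26, limma adjusted p = 0.0172), while Nppb (-0.51) and Ryr2 (0.57) were not called. Over all genes 1.9% were called lower and 4.42% higher in heterozygous cells, and 4.46% and 6.26% in homozygous cells. Of the macrophage markers all 14 measured were called higher in both mutants by limma, with a median difference of 2.73 in heterozygous and 2.16 in homozygous cells, and their defining genes Csf1r (6.71 to 11.09 over the arrays) and Lyz2 (8.01 to 12.66) were present on every array. Over all 18 arrays their summed level did not order the muscle genes uniformly. Mylpf was highest where the macrophage level was lowest, at 8.73, 8.58 and 7.84 in the wt arrays with Y transcripts, whereas Acta1 was highest, at 12.66, 12.51 and 11.54, in the wt arrays with Xist, whose macrophage level is intermediate. With the macrophage mean as a covariate only Acta1 stayed called (-4.02 and -3.74), and Myog (0.43 and 0.06), Actc1 (0.67 and 0.46) and Mylpf (0.72 and 0.2) changed sign without a call. That covariate was chosen after the data were seen, and the macrophage sums of wt and mutant arrays do not overlap. Of 12 fibroblast markers S100a4 was lower (-1.1 ± 0.16 and -1.28 ± 0.16, limma adjusted p = 0.00094 and 0.000445) and Dcn higher (1.09 ± 0.29 and 1 ± 0.29, adjusted p = 0.0434 and 0.0452) in both mutants, and Col1a1 (0.24 ± 0.06) and Fn1 (0.14 ± 0.04) were higher in homozygous cells. The part of these cells in the muscle values was not tested beyond the macrophage covariate.

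**Figure D3:**
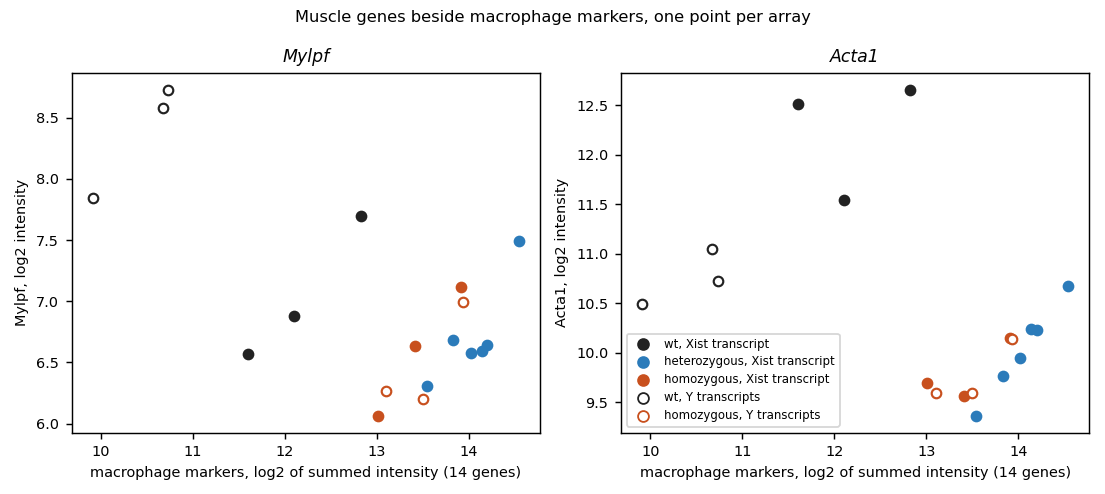
Log2 intensity of Mylpf (left) and Acta1 (right) against the log2 summed intensity of 14 macrophage markers, with 1 point per array. Open wt points (Y transcripts) hold the highest Mylpf values and the lowest macrophage level, while filled wt points (Xist) hold the highest Acta1 values.

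Other muscle genes moved less uniformly with genotype. Of the 28 measured, limma called 2 higher and 2 lower in heterozygous cells and 2 higher and 5 lower in homozygous cells. Over all genes 4.42% were called higher and 1.9% lower, and 6.26% and 4.46%, so the 2 higher of 28 lie near the background. With class averages the lower calls went from 2 to 0 and from 5 to 0, and with an array left out they ran from 0 to 6 and from 2 to 8. The embryonic myosin heavy chain Myh3 was lower in homozygous cells (-1.45 ± 0.38, limma adjusted p = 0.0312), with -1.26 ± 0.38 and an adjusted p of 0.0803 in heterozygous cells. Eno3, the muscle enolase, was lower in both (-0.85 ± 0.21 and -1.06 ± 0.21, limma adjusted p = 0.0299 and 0.00692). So was Met, the receptor that guides migrating muscle progenitors and is made by many other cells (-1.03 ± 0.23 and -1.16 ± 0.23, limma adjusted p = 0.0145 and 0.00632). The progenitor genes Six4 (-0.24 ± 0.06) and Eya4 (-0.34 ± 0.1) were lower in homozygous cells by small amounts (limma adjusted p = 0.0337 and 0.0478). Mef2a (0.29 ± 0.06 and 0.31 ± 0.06) and Mef2c (1.39 ± 0.14 and 1.25 ± 0.14) were higher in both mutants (limma adjusted p = 0.0131, 0.00763, 3.49e-05 and 0.000158). Both MEF2 factors cooperate with MyoD in muscle, and macrophages are known to express Mef2c too. Sarcomere and Z-disc genes had a median of -0.28 and -0.6, with 0 and 1 of 8 called, and fusion and receptor genes -0.06 and 0.15 with none of 8 called. Of 15 smooth muscle and myofibroblast genes, a program that fibroblasts use, 1 was called higher in heterozygous cells (Actg2, 0.44 ± 0.12, limma adjusted p = 0.0383) and none was called in homozygous cells.

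The 2 wt arrays of each treatment also differed from each other in the muscle genes. The array with Y transcripts exceeded the array with Xist by 1.58, 1.43 and 1.5 for Actc1 (untreated, 4 h and 24 h), by 2.09, 0.44 and 1.49 for Myog and by 1.85, 0.88 and 1.27 for Mylpf. For Myl1 the excess was 1.23, 0.73 and 0.96, and for Chrna1 0.5, 1.16 and 0.13. Of the 7 tested genes Actc1, Mylpf, Myl1 and Chrna1 were thus higher in all 3 treatments, where 28.2% of all genes were. Myog was higher as well, but without the arrays with Y transcripts it would not have passed the filter. Its higher level there was therefore partly given by the filter. Acta1 alone was lower in all 3 (-0.81, -1.61 and -2.02), where 12.5% of all genes were, and Des was mixed (1.01, 0.7 and -0.11). In homozygous cells the same subtraction gave means over the treatments of 0.03 for Actc1, -0.13 for Myog, -0.12 for Mylpf, -0.03 for Acta1 and 0.85 for Des. Des was there the only 1 of the 7 higher in all 3 treatments (0.47, 0.87 and 1.2; background 21.1%), and Myl1 the only 1 lower in all 3 (-0.13, -0.05 and -0.47; background 17.5%). The difference between the genotypes in this respect was not tested.

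Embryonic sarcomere genes went with the members in wt. Of 8 sarcomere and Z-disc genes measured, 6 were higher in all 3 arrays with Y transcripts, with means of 1.6 for the slow troponin C Tnnc1, 1.51 for the embryonic light chain Myl4, 1.49 for the slow troponin I Tnni1, 1.44 for Myh3, 1.1 for the cardiac and embryonic troponin T Tnnt2 and 1.05 for titin Ttn. Titin passed log2 5 on 3 arrays only, at 5.21 and 5.17 in wt arrays with Y transcripts and 5.13 in untreated heterozygous replicate 1. Its size is therefore uncertain, and its higher level was partly given by the filter. At 4 h both its wt arrays were dim and the difference was 0.02. Myom1 and Ldb3, of the M-band and the Z-disc, were lower in all 3 (-1.14 and -0.45). Counted over all 28 other muscle genes, 12 were higher and 3 lower in all 3 wt pairs, and 11 and 6 in the homozygous pairs. Over all genes these shares were 28.2% and 12.5% in wt and 21.1% and 17.5% in homozygous pairs. Markers of other cells moved with the same arrays, against those wt shares: 13 of 14 macrophage markers were lower in all 3 arrays with Y transcripts (median of the means -1.62), 4 of 5 epithelial markers were higher (median 1.27), 4 of 5 neural and glial markers were higher (median 0.59), and 9 of 15 smooth muscle genes were lower (median -0.16). The part of these cells in the muscle values was not tested.

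**Figure D4:**
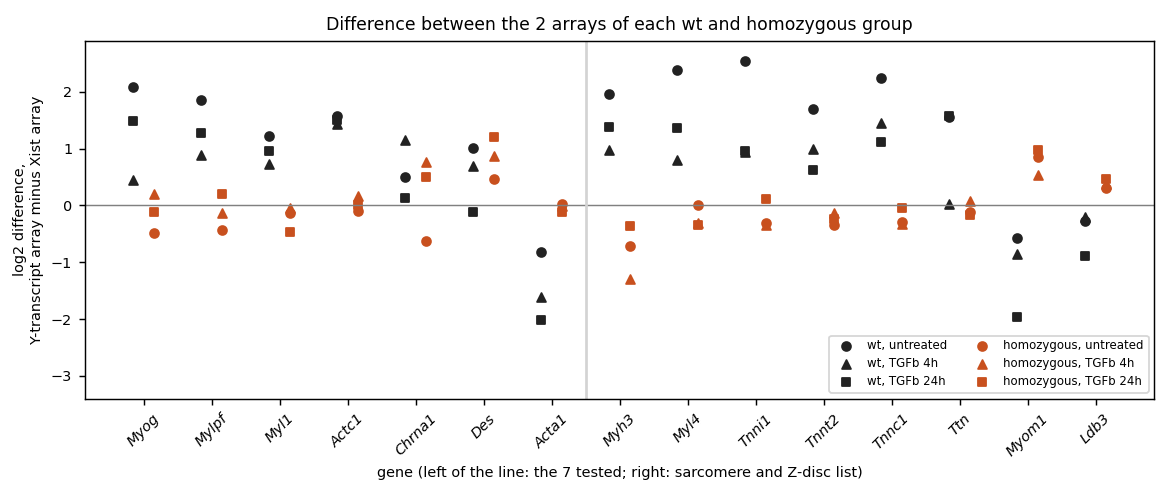
Log2 difference between the array with Y transcripts and the array with Xist in each treatment, for wt (black) and homozygous cells (orange). Left of the line are the 7 tested genes, right of it the sarcomere and Z-disc list. Wt points lie above 0 in all 3 treatments for Myog, Mylpf, Myl1, Actc1, Chrna1 and 6 sarcomere genes, and below 0 for Acta1, Myom1 and Ldb3.

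Across all 18 arrays, which share treatments and the genotype difference and may share cultures, Pearson's r was 0.94 between Myog and Mylpf. It was 0.92 between Myog and Actc1, 0.92 between Actc1 and Mylpf and 0.91 between Mylpf and Myl1. In that order these pairs had 0.95, 0.91, 0.93 and 0.95 within the 6 wt arrays. Within the 12 mutant arrays, where Myog was dim throughout, they had 0.77, 0.43, 0.6 and 0.77. Myog passed the filter through wt arrays alone. Acta1 correlated at 0.39 with Actc1 and 0.45 with Mylpf over the 18 arrays. Within the 6 wt arrays those values were -0.78 and -0.63, and within the 12 mutant arrays 0.56 and 0.81, so the pooled value mixes opposite relations. Desmin had r between -0.15 and 0.26 with the other 6 over the 18 arrays. Within the 6 wt arrays it had 0.9 with Myl1, 0.76 with Actc1, 0.76 with Mylpf and -0.21 with Acta1. Within the 12 mutant arrays it had 0.6 to 0.69 with those 4, so here too the pooled value differs from those within genotypes. Predicted genes, clones and the 7 themselves were left out of a search for genes like the mean standardised level of the 7. The 10 most like it among the rest, by Pearson's r over 18 arrays, were Myl4 (0.928), Tnnc1 (0.907), Crabp1 (0.902), Sytl2 (0.891), Gipc2 (0.882), Dlk1 (0.88), Adcyap1r1 (0.875), Mogat2 (0.874), Eno3 (0.854) and Tusc1 (0.851). Myl4, Tnnc1 and Eno3 are muscle genes of the lists above, and Crabp1 binds retinoic acid. Within the 6 wt arrays these 10 had r of 0.853 to 0.987 and within the 12 mutant arrays 0.454 to 0.876.

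TGFb1 was followed to ask whether the ligand moved the muscle genes. Desmin fell between 4 h and 24 h in each genotype, with differences of -1.36 ± 0.41 in wt, -1.38 ± 0.41 in heterozygous and -1.36 ± 0.41 in homozygous cells (limma adjusted p = 0.0232, 0.0227 and 0.0215). It was the only 1 of the 7 called in these 3 comparisons, in which 19.2%, 17.3% and 22% of all genes were called lower. The call was lost in wt without 4 h replicate 1 (-1.01) or without either array at 24 h (-1.3 and -1.41), in heterozygous cells without any of the 4 arrays compared (-1.17 to -1.58), and in homozygous cells without 4 h replicate 2 (-0.92) or 24 h replicate 1 (-0.76). Chrna1 rose at 4 h in heterozygous (1.31 ± 0.42, limma adjusted p = 0.0339) and homozygous cells (1.41 ± 0.42, adjusted p = 0.0193), from dim untreated groups, which gives bounds of at least 1.29-fold and at least 1.66-fold. All genes called higher in these comparisons made up 15.7% and 20.1%. In wt the Chrna1 difference was 0.39 ± 0.42, and the response did not pass the test of a difference from wt (0.92 ± 0.59 and 1.02 ± 0.59, limma adjusted p = 1 and 0.66). The heterozygous call was lost without untreated replicate 2 (0.91) or without either 4 h array (1.08 and 1.53), and the homozygous call without untreated replicate 2 (1.1) or 4 h replicate 2 (1.03).

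The other treatment comparisons were wt at 4 h, wt at 24 h, heterozygous at 24 h and homozygous at 24 h. At an unadjusted p under 0.05 limma gave 0, 1, 0 and 1 of the 7, in that order. Of all 10078 genes it gave 3590, 2565, 1797 and 2087. After adjustment it called 0 of the 7 in each. In wt cells at 4 h 9.49% of all genes were called higher and 11.4% lower, and at 24 h 4.51% and 7.14%. At 24 h these shares were 2.95% and 4.12% in heterozygous and 3.1% and 5.51% in homozygous cells. Without untreated wt replicate 1 the wt 24 h count was 3 (Myog, Actc1 and Des). For a difference between genotypes in the response at 4 h or 24 h limma called 0 of the 7, and 0% of all genes. At an unadjusted p under 0.05 it gave 0 of the 7 in 4 comparisons. All genes at that level numbered 347 and 311 for heterozygous (4 h and 24 h) and 847 and 577 for homozygous cells. With the sets of arrays described next as a block, the share of all genes at that level was not counted. There 4 of 28 such tests had an unadjusted p under 0.05 and 0 passed adjustment. These were Actc1 at 24 h (0.54 ± 0.17 and 0.63 ± 0.17 above the wt response, adjusted p = 0.73 and 0.362), Acta1 at 24 h in heterozygous cells (-0.72 ± 0.28, adjusted p = 0.744) and Chrna1 at 4 h in homozygous cells (1.02 ± 0.45, adjusted p = 0.341).

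Differences were also taken within sets of arrays. The sets were the wt arrays with Xist, the wt arrays with Y transcripts and the 2 replicate numbers of each mutant, 6 in all, with 1 array per treatment. After 24 h Actc1 was lower than untreated in 6 of 6 sets (-0.43 to -1.16), as were Des (-0.58 to -1.7) and Myl1 (-0.53 to -1.09), where 20.7% of all genes were lower in 6 of 6. Mylpf was lower in 5 of 6 and Myog in 4 of 6. The wt sets had the largest Actc1 differences, -1.07 and -1.16, and the mutant sets -0.43 to -0.59. After 4 h Acta1 was higher in 6 of 6 sets (0.32 to 1.13), as were Des (0.06 to 0.67) and Chrna1 (0.06 to 2.1), where 23% of all genes were. Chrna1 was still higher in 6 of 6 at 24 h (0.08 to 1.4; background 14.2%). Between 4 h and 24 h Acta1, Actc1, Des, Mylpf and Myl1 were each lower in 6 of 6 sets, a pattern that 33.3% of all genes shared.

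With these sets as a fixed block in limma, a choice made after the data were seen, the 24 h calls against untreated were Actc1, Des and Myl1 in wt (-1.11 ± 0.12, -1.14 ± 0.22 and -0.95 ± 0.19, adjusted p = 6.39e-05, 0.00379 and 0.00466; 12.9% of all genes called lower). In heterozygous cells they were Actc1 and Myl1 (-0.57 ± 0.12 and -0.84 ± 0.19, limma adjusted p = 0.00762 and 0.0118; 7.86%), with Des at an adjusted p of 0.0514. In homozygous cells they were again Actc1, Des and Myl1 (-0.48 ± 0.12, -1.03 ± 0.22 and -0.7 ± 0.19, limma adjusted p = 0.0183, 0.00741 and 0.0281; 10.4%). At 4 h the same fit called Acta1 higher in wt (0.73 ± 0.2, adjusted p = 0.0181; 13.4% of all genes called higher) and in homozygous cells (0.57 ± 0.2, adjusted p = 0.0344; 25.2%), Des in heterozygous cells (0.64 ± 0.22, adjusted p = 0.0404; 20.9%) and Chrna1 in both mutants. Between 4 h and 24 h it called Actc1, Des and Myl1 lower in each genotype, with Mylpf in wt and homozygous and Acta1 in heterozygous cells, beside 25%, 23.1% and 28% of all genes. With the sets as a random effect most of these calls were lost: at 24 h 1 remained in wt (Des) and 0 in either mutant, at 4 h Chrna1 alone in each mutant and 0 in wt. The wt sets were formed from Xist and Y transcripts, so a shared culture is assumed there and not given by a label.

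**Figure D5:**
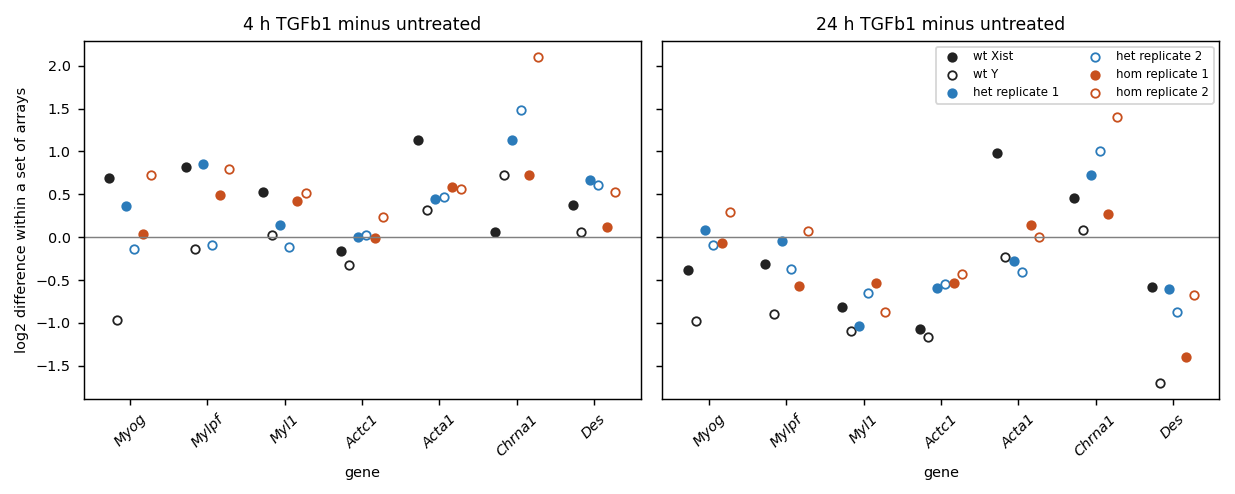
Log2 difference from untreated at 4 h (left) and 24 h (right) for the 7 tested genes in each of the 6 sets of arrays. At 24 h all 6 points lie below 0 for Myl1, Actc1 and Des and above 0 for Chrna1, and at 4 h all 6 lie above 0 for Acta1, Chrna1 and Des.

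Among the 28 other muscle genes the 8 of the progenitor list held 3 of the 4 calls for lower levels at 4 h in wt, 4 of 5 in heterozygous and 4 of 7 in homozygous cells. Eya1, a transcription cofactor of muscle progenitors, fell by 2.46 on the log2 scale at 4 h in wt cells, where the treated arrays were dim (at least 3.38-fold, limma adjusted p = 0.000594). Its level was lower by at least 2.78-fold at 4 h in heterozygous cells (limma adjusted p = 0.000842) and by -1.33 ± 0.35 in homozygous cells (adjusted p = 0.011). Eya4 was lower at 4 h in all 3 genotypes (-0.97 ± 0.17, -1.34 ± 0.17 and -1.55 ± 0.17, limma adjusted p = 0.00242, 0.000187 and 5.16e-05). Met was lower at 24 h in all 3 (-1.6 ± 0.39, -1.48 ± 0.39 and -1.73 ± 0.39, limma adjusted p = 0.0189, 0.0359 and 0.0141). Megf10, a receptor of satellite cells that other cells also make, was higher at 24 h in all 3 (1.53 ± 0.24, 1.32 ± 0.24 and 1.3 ± 0.24, limma adjusted p = 0.00135, 0.00426 and 0.00413). At 4 h 1 higher and 4 lower were called in wt, 2 and 5 in heterozygous and 3 and 7 in homozygous cells, and at 24 h 1 and 7, 1 and 4, and 1 and 5. Over all genes 9.49% were called higher and 11.4% lower at 4 h in wt, 15.7% and 13.2% in heterozygous and 20.1% and 17.5% in homozygous cells, so the lower counts at 4 h lie near the background. At 24 h these shares were 4.51% and 7.14%, 2.95% and 4.12%, and 3.1% and 5.51%. Of the sarcomere list, Tnnt2 was higher at 4 h in both mutants (1.38 ± 0.43 and 1.7 ± 0.43, limma adjusted p = 0.0312 and 0.00891), and Myom1 was lower at 24 h in wt (-2.06 ± 0.56, adjusted p = 0.0311). Jph1, which ties the membrane to the calcium store, was higher at 4 h in all 3 genotypes (1.26 ± 0.23, 0.78 ± 0.23 and 1.27 ± 0.23, limma adjusted p = 0.00266, 0.0235 and 0.00118).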

How the data were processed

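RNA of fibroblast cultures was measured on 18 Affymetrix mouse arrays. The deposited values are linear intensities per probe set made by the authors with GCRMA, per the submitters' processing notes, from 2 ug total RNA and a single amplification per the labels' protocols; no source used here gives the GCRMA version. Values were turned into log2 with no further normalization. The median intensity was 8.42 to 9.16, and 39.6 to 40.4% of probe sets lay above log2 5. Control probe sets (64) were left out. Probe sets with log2 of at least 5 in at least 2 arrays were kept (18958), and each gene was represented by the brightest of its probe sets that carry 1 symbol (10078 genes), named from the platform annotation (34945 of 45101 probe sets with 1 symbol, 932 with several, 9160 with none). A mean per group was fitted to all 18 arrays with limma 3.58.1 in R 4.3.3 (eBayes with trend, 9 residual degrees of freedom), with two-sided tests and Benjamini-Hochberg adjustment over the 10078 genes. The code was tested on simulated data. Where both arrays of a group were dim, a fold is a bound from log2 5.

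The genes, the lists and the tests were chosen with earlier results of these data known. Named genes were all 9 muscle genes, up to 4 called genes of a list per comparison described and the defining markers of fibroblasts and macrophages. The 10 genes most alike, with predicted genes and clones left out, were named too. Same-numbered arrays deviated together in the mutants (correlations 0.38 to 0.61) but not in wt (-0.49, -0.66 and 0.57), so the numbers do not pair all samples. Alternatives were other filters, scalings, weights and blocks, leaving out each array, and, chosen after seeing the data, blocks and covariates by Xist or Y class and macrophage level. All 18 columns were used.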

Additional observations from a re-analysis of the deposited data

Results flagged for a closer look

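Myl1 differed between the array with Y transcripts and the array with Xist in opposite directions in 2 genotypes: the mean over the 3 treatments was 0.97 in wt, with all 3 pairs above 0, and -0.22 in homozygous cells, with all 3 pairs below 0. The difference between the genotypes was not tested. The homozygous values (-0.13, -0.05 and -0.47) are small beside the wt values (1.23, 0.73 and 0.96).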

How the results depend on the processing

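Of 680 alternative values of single genes, 539 kept the direction and the side of the threshold or, without a test, stayed within 1 SD. Of the rest, 116 lost the call, 5 gained it, 14 without a test moved beyond 1 SD and 6 changed sign. The 6 came from the macrophage covariate: Myog 0.43, Actc1 0.67 and Mylpf 0.72 in heterozygous and 0.06, 0.46 and 0.2 in homozygous cells, none called. The cause was not tested. Of 490 alternative counts 390 stayed within 1.5 times.

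Heterozygous against wt, 5 called with Myog counted: 2 without a filter, 3 with a mean of at least log2 6, 2 with array weights, 0 with only the groups compared, 3 with the replicate block by averaging, 3 with the class block as a random effect, 0 with class averages, 3 with the class covariate, 1 with the macrophage covariate and 1 to 6 with an array left out. Homozygous against wt, 5 called with Myog counted: 2 without a filter, 2 with only the groups compared, 3 and 0 with the class block (random, averaged), 1 with the macrophage covariate and 2 to 6 with an array left out. Homozygous against heterozygous stayed at 0 in every alternative.

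TGFb1 counts by genotype: wt 4 h, 0, became 1 with the fixed class block (random: 0) and stayed 0 with an array left out. Wt 24 h, 0, became 1 with the replicate block within genotype, 3 and 1 with the class block (fixed, random), 1 with the class covariate, 2 with the macrophage covariate and 0 to 3 with an array left out. Wt 24 h against 4 h, 1, became 0 without a filter, with array weights and with only the groups compared, 2 with the replicate block within genotype, 4 and 2 with the class block, 3 with the macrophage covariate and 0 to 1 with an array left out. Heterozygous 4 h, 1, became 0 without a filter, at log2 6 and with 16 added, 2 with only the groups compared and with the fixed class block (random: 1), and 0 to 1 with an array left out. Heterozygous 24 h, 0, became 2 with the fixed class block (random: 0), and 24 h against 4 h, 1, became 4 with it (random: 1) and, with the macrophage covariate, 2 (left out: 0 to 0 and 0 to 1). Homozygous 4 h, 1, became 0 at log2 6, 4 with only the groups compared, 2 with the fixed class block (random: 1) and 0 to 1 with an array left out. Homozygous 24 h, 0, became 1 with array weights, only the groups compared and the class covariate, 3 with the fixed class block (random: 0), and 0 to 0 with an array left out. Homozygous 24 h against 4 h, 1, became 3 with array weights, 4 with only the groups compared, 4 and 2 with the class block, 3 with the macrophage covariate and 0 to 1 with an array left out.

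Other muscle genes lower in heterozygous cells, 2, became 0 with array weights, only the groups compared, class averages and the macrophage covariate, 4 with the replicate block over all groups, 1 with the class covariate and 0 to 6 with an array left out. In homozygous cells, 5, they became 2 with array weights, 3 with only the groups compared, 2 and 0 with the class block, 0 with the macrophage covariate and 2 to 8 with an array left out. Signals near log2 5 (Myog, Chrna1, Tnnc2) limit what 2 arrays per group can show. A group left with 1 array was assumed to vary like the others.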

Other observations

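Markers of other tissues in the embryo also differed between the paired wt arrays. Epithelial markers summed to log2 10.83 to 11.67 in the wt arrays with Y transcripts and 9.37 to 11.01 in those with Xist, and neural and glial markers to 10.49 to 11.31 and 10.3 to 10.91. Of the 2 cartilage markers measured, 1 was higher and 1 lower in all 3 arrays with Y transcripts. Cardiac markers summed to 7.47 to 8.82 and 6.99 to 10.2, with the highest value in the wt array with Xist at 4 h. In homozygous cells the paired arrays gave epithelial sums of 10.17 to 11.31 (Y transcripts) and 10.49 to 11.86 (Xist).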
